A study of Mus musculus with 6 samples.

Results

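The genes described here encode the receptors for fibroblast growth factors (FGFs) and the Sprouty and Spred proteins that restrain signalling downstream of them. They are 10 of the 27179 genes counted: the receptors Fgfr1 (Entrez gene ID 14182), Fgfr2 (14183), Fgfr3 (14184), Fgfr4 (14186) and Fgfrl1 (116701) and the inhibitors Spry1 (24063), Spry2 (24064), Spry4 (24066), Spred1 (114715) and Spred2 (114716). They were chosen by name and matched by symbol to the Entrez gene IDs of the counts, and all 10 passed the filter on low counts. RNA-seq was done on satellite cells, the muscle stem cells that carry Pax7, sorted by flow cytometry from muscle of wild-type (WT) C57Bl/6N mice. The mice were on a high-fat diet (3 libraries) or a chow diet (3 libraries), and the series was set up to compare the satellite cells of obese mice with those of lean mice. The labels give no age, sex or length of feeding, and they do not say whether the libraries of a diet came from separate animals, so the spread that p-values measure is that between libraries and may in part be technical.

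FGFs bind their receptors together with heparan sulfate, and the receptor tyrosine kinases then signal through the adaptor Frs2 to Ras, Raf, MEK and ERK. ERK signalling induces Sprouty and Spred genes, whose products act back on the pathway as feedback inhibitors, so these genes are often read as targets of the pathway as well as brakes on it. In muscle, FGF signalling drives satellite cells out of quiescence and into division. Spry1 is known as a gene of quiescent satellite cells that is needed for activated cells to return to quiescence, and Fgfr1 and Fgfr4 are known as the main receptors of these cells.

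Library totals ran from 14930394 to 18217818 counts. Levels are given as CPM, counts scaled to a library of fixed size with scaling factors from edgeR's trimmed mean method (TMM), and 3 values for a diet are those of its libraries 1, 2 and 3 in that order. A principal component analysis used the 500 genes that varied most. On the component with 29.4% of the variance, high-fat diet library 1 (43.1) and chow library 3 (-60.8) lay outside the other 4 (-6.64 to 12.3). The differences of the 10 genes are therefore also given without this pair. On the same component every high-fat diet library (11.9 or more) lay above every chow library (0.142 or less). Each library of the pair was thus the one of its diet furthest from the other diet. Of 8 markers of satellite cells, all were detected and 0 passed the test between diets, with a summed level of 2477 to 2965 CPM in the high-fat diet libraries and 2595 to 3073 CPM in the chow libraries. Pax7 itself lay between 171 and 283 CPM in the high-fat diet libraries and between 370.4 and 429.7 CPM in the chow libraries (adjusted p = 0.180 in edgeR). Itga7, another of the 8, was the reverse, with 322 to 404 CPM in the high-fat diet libraries and 193 to 280.2 CPM in the chow libraries (adjusted p = 0.328 in edgeR), and 5 of the 8 had the higher mean on the high-fat diet. Of the markers of other cells, 8 endothelial genes summed to 229 to 384 CPM for the high-fat diet and 259.9 to 338 CPM for chow. Tek was the most abundant of them in every library, at 105 to 216 CPM. Pecam1 was at 4.94 to 65.7 CPM, Cdh5 at 6.63 to 65.4 and Flt1 at 4.65 to 44.8 in the 6 libraries. For Pecam1 and Cdh5 the lowest was high-fat diet library 1, and for Flt1 chow library 1. Cldn5, Emcn and Egfl7 reached at most 12.7 CPM. Kdr had every high-fat diet library (23.8 to 39.3 CPM) above every chow library (7.29 to 13.7 CPM, adjusted p = 0.442 in edgeR), and the other endothelial genes overlapped. The 8 genes of fibro-adipogenic progenitors, of which 7 were tested, summed to 944 to 1148 and 806 to 1009 CPM. In the 6 libraries Col3a1 was at 277 to 385 CPM, Dpt at 198 to 382, Cd34 at 107 to 242 and Dcn at 103 to 191. Pdgfra, which defines these cells, was at 0 to 8.28 CPM, and Lum, Ly6a and Pi16 reached at most 26.9 CPM. The 6 genes of pericytes and smooth muscle summed to 67.9 to 158 CPM for the high-fat diet and 110.1 to 184 CPM for chow, and the 8 of mature myofibres to 78.5 to 173 and 91.0 to 116 CPM. Most of the myofibre sum was Ttn, at 68.6 to 150 CPM in the 6 libraries. Myh4 reached 16.3 CPM and Acta1 9.87 CPM, and Ckm, Myh1, Myh2 and Mylpf reached at most 5.17 CPM. Tnnt3 had every high-fat diet library (1.17 to 4.91 CPM) below every chow library (6.97 to 16.6 CPM, adjusted p = 0.765 in edgeR), and the other myofibre genes overlapped. Adgre1 and C1qa of macrophages, Cd3e of T cells, and Plin1 and Lep of adipocytes had 0 counts in every library, but other markers of these cells were found. The macrophage and leukocyte list summed to 7.61 to 25.2 CPM for the high-fat diet and 18.9 to 48.9 CPM for chow, with Cd68 at 6.31 to 31.0 CPM in all 6 libraries. The adipocyte list summed to 0 to 0.0539 CPM for the high-fat diet and 0 to 7.79 CPM for chow. In each marker list 0 genes passed. The part of such cells in the results was not tested, and in sorted cells measured in bulk, fewer cells of a type and less RNA per cell cannot be told apart.

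Fgfr1 was by far the most abundant of the 10 genes, and Fgfr4 came next. To compare genes, CPM was divided by the length of the longest protein-coding transcript in kilobases. On this scale the mean over the 6 libraries was 258 for Fgfr1, 62.0 for Fgfr4, 54.8 for Spry2, 44.2 for Spry1, 28.7 for Spry4, 28.7 for Spred1, 10.3 for Spred2, 3.89 for Fgfr3, 3.33 for Fgfrl1 and 1.53 for Fgfr2. The libraries of Fgfr1 lay above all of Fgfr4, those of Spred1 above all of Spred2, and those of Spred2 above all of Fgfr3. The other neighbours in this order overlapped, and Spry4 exceeded Spred1 in 2 of 6 libraries. With the union of all annotated exons as the length, the mean of Fgfr1 was 132, and only the order of Fgfr3 and Fgfrl1 was exchanged.

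The diets were compared to ask which transcripts of satellite cells differ between obese and lean mice. Among the 10 genes, Fgfr4, Spry1 and Spry4 had every high-fat diet library below every chow library, and no gene had every one above. With p-values from the quasi-likelihood test of edgeR, adjusted by Benjamini-Hochberg over all 13202 genes tested, 0 of the 10 passed an adjusted p of 0.05, as did 0 in DESeq2 and 0 in limma-voom. Over all genes 34 passed, which is 0.258% of those tested. An unadjusted p under 0.05 was found in edgeR for 3 of the 10, all lower with the high-fat diet, against 7.65% of all genes in either direction and 3.95% lower. The diets did not overlap for 15.3% of all genes, 7.87% lower and 7.42% higher with the high-fat diet. The median log2 fold change was -0.07 over the 10 genes, of which 3 were positive and 7 negative, and -0.01 over all genes.

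**Figure D1:**
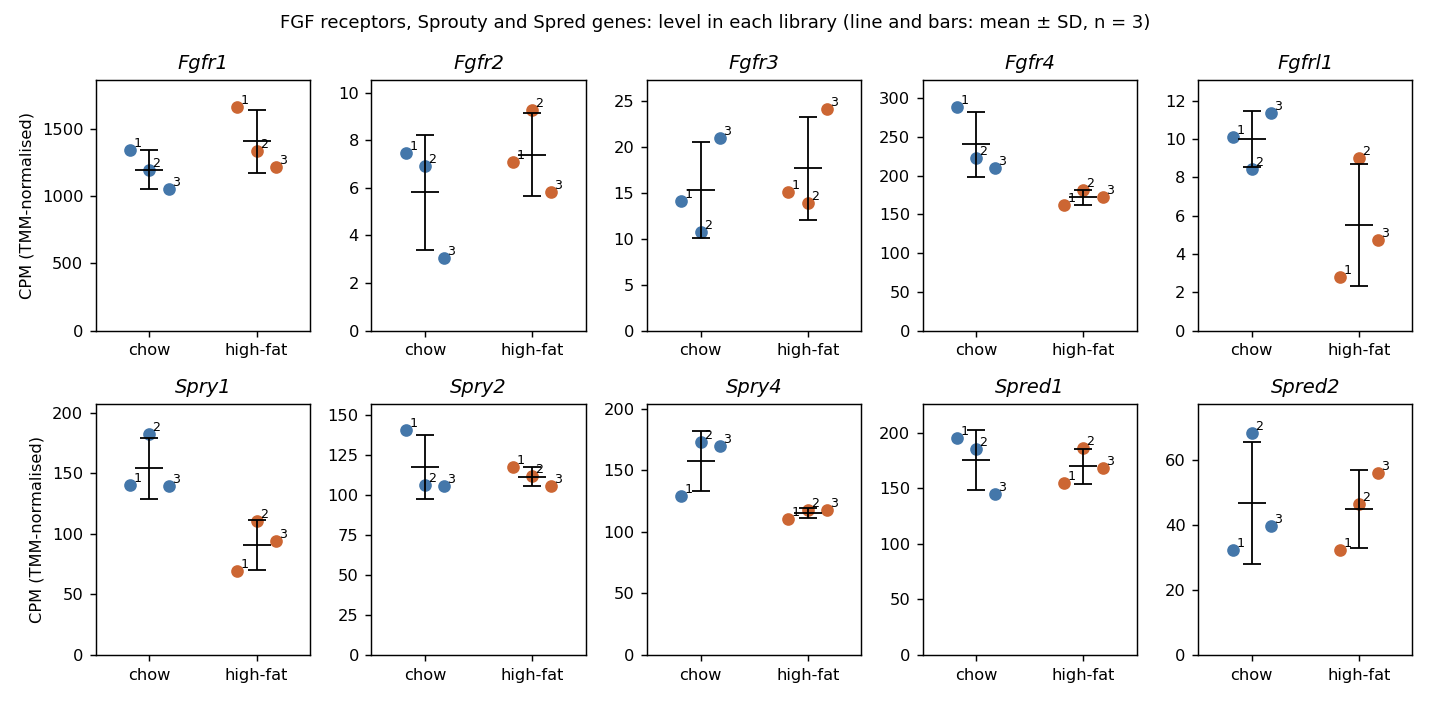
Level of each of the 10 genes in TMM-normalised CPM (vertical axes from 0, a scale for each gene), by diet. Points are libraries with their replicate number, and lines with bars are the mean ± SD of 3 libraries. All 3 high-fat diet points of Fgfr4, Spry1 and Spry4 lie below the chow points, and the points of the other 7 genes overlap.

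Fgfr1 (chromosome 8, 25518759 to 25575718 in GRCm38, plus strand, 18 exons in the longest coding transcript), the receptor through which FGF2 acts on many cell types, was at 1663, 1337 and 1215 CPM on the high-fat diet and 1342, 1189 and 1052 CPM on chow. The diets overlapped, and high-fat diet library 1 was above the other 5 libraries. The log2 fold change was 0.23 (SE 0.16, 95% confidence interval -0.10 to 0.57) with an adjusted p = 0.858 in edgeR, and it was 0.02 without both high-fat diet library 1 and chow library 3. RefSeq places Gm16159 and Gm31288 across the span of Fgfr1, neither of which has a row in the counts, and no gene overlaps the other 9. The counts are per gene, so that the splice forms of the receptors, which differ in the ligands they bind, could not be told apart.

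Among the receptors, Fgfr4 (chromosome 13, 55152818 to 55168759, plus strand, 18 exons), a receptor tyrosine kinase typical of the muscle lineage, was the one whose diets did not overlap. It was at 162, 181 and 173 CPM in libraries 1, 2 and 3 of the high-fat diet and at 288, 223 and 209.8 CPM in the chow libraries. The high-fat diet libraries were within a narrow range below all chow libraries, of which chow library 1 was the highest. The means were 172 ± 9.47 and 240.3 ± 41.9 CPM (SD, n = 3 each), and the log2 fold change was -0.48 (SE 0.19, interval -0.88 to -0.08) with an adjusted p = 0.502 in edgeR. Over the 18 alternatives the log2 fold change of Fgfr4 ran from -0.57 to -0.33 and its adjusted p from 0.2998 to 0.825. The smallest difference (-0.33) and the highest adjusted p (0.825 in edgeR) were those without chow library 1. Without the outlying pair of libraries the difference was -0.52.

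The other receptors were scarce. Fgfr3, a kinase receptor best known from cartilage and bone (chromosome 5, 33721724 to 33737068, plus strand) was at 15.1, 13.9 and 24.2 CPM on the high-fat diet and 14.1, 10.8 and 21.02 CPM on chow. Library 3 of either diet was the highest of its group, and the diets overlapped (log2 fold change 0.21, SE 0.55). Fgfr2, a kinase receptor prominent in epithelia (chromosome 7, 130162451 to 130266808, minus strand) was at 7.09, 9.27 and 5.83 CPM on the high-fat diet and 7.47, 6.94 and 3.04 CPM on chow (log2 fold change 0.35, SE 0.94). Fgfrl1 (chromosome 5, 108694229 to 108706950, plus strand), a receptor without a kinase domain, was at 2.80, 9.02 and 4.75 CPM on the high-fat diet and 10.1, 8.45 and 11.4 CPM on chow. High-fat diet library 2 of Fgfrl1 lay above chow library 2, and the log2 fold change was -0.85 (SE 0.86, interval -2.70 to 0.99, adjusted p = 0.958 in edgeR). Without high-fat diet library 1 and chow library 3 the log2 fold change was 0.62 for Fgfr3, 0.08 for Fgfr2 and -0.42 for Fgfrl1.

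The make-up of the receptor pool was set out per library. Fgfr1 made up 85.9%, 81.6% and 80.3% of the summed level per kilobase of Fgfr1 to Fgfr4 in libraries 1, 2 and 3 of the high-fat diet and 74.4%, 76.8% and 75.2% in the chow libraries. Fgfr4 made up 12.7%, 16.8% and 17.3% on the high-fat diet and 24.2%, 21.8% and 22.7% on chow. The diets did not overlap in either share, and the mean share of Fgfr4 was 15.6% ± 2.51 against 22.9% ± 1.20 (SD, n = 3 each). The share of Fgfr3 was at most 1.90% and that of Fgfr2 at most 0.662% in each library. The sum of the 4 receptors overlapped between diets, at 336 ± 43.1 and 314 ± 40.6 CPM per kilobase. Shares of a whole are not independent of each other, and no test was made of them.

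Spry1, a Sprouty gene that inhibits Ras and ERK signalling below receptor tyrosine kinases, had the smallest p of the 10. It lies on chromosome 3 (37639947 to 37644599, plus strand, 2 exons). Its level was 69.1, 110.3 and 94.1 CPM in libraries 1, 2 and 3 of the high-fat diet and 140.0, 183 and 139 CPM in chow libraries 1, 2 and 3. The diets did not overlap, and high-fat diet library 1 was the lowest and chow library 2 the highest. Of the satellite cell markers described above, Pax7 had its diets apart in the same direction and Itga7 in the opposite one. The means were 91.2 ± 20.8 and 154 ± 24.9 CPM (SD, n = 3 each). The log2 fold change was -0.76 (SE 0.23, interval -1.26 to -0.26), a level 0.592-fold that of chow, with an adjusted p = 0.318 in edgeR. By p, Spry1 ranked at place 239 of 13202 genes. The 18 alternatives include the main fit read at a threshold of 0.1. Over them the log2 fold change of Spry1 ran from -0.92 to -0.58 and its adjusted p from 0.124 to 0.652. Without the pair of libraries that lay outside the others the log2 fold change was -0.65.

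Spry4, another Sprouty gene and a widely used readout of FGF signalling, lies on chromosome 18 (38586247 to 38601347, minus strand, 2 exons). It was at 111, 117 and 118 CPM in libraries 1, 2 and 3 of the high-fat diet and at 129, 173 and 169.8 CPM in the chow libraries. The high-fat diet libraries were close together, with a mean of 115 ± 3.91 CPM, and chow library 1 was the chow value nearest to them (chow mean 157 ± 24.4 CPM, SD, n = 3 each). The log2 fold change was -0.45 (SE 0.20, interval -0.88 to -0.02) with an adjusted p = 0.632 in edgeR. Without high-fat diet library 1 and chow library 3 it was -0.35. In the 18 alternatives the unadjusted p of Spry4 was under 0.05 in 8, that of Fgfr4 in 16 and that of Spry1 in 18. Many of these use the same 6 libraries. In the 6 edgeR fits with 1 library left out, it was under 0.05 in 1 for Spry4, 4 for Fgfr4 and 6 for Spry1.

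Spry2 encodes a Sprouty protein of the same kind and lies on chromosome 14 (105891947 to 105896819, minus strand, 2 exons). Its values overlapped, at 117, 112 and 105 CPM on the high-fat diet and 140.3, 106 and 105 CPM on chow. Chow library 1 was above the other 5 libraries, which differed from each other by little. The log2 fold change was -0.07 (SE 0.21), and its interval of -0.53 to 0.38 corresponds to levels between 0.694-fold and 1.30-fold that of chow (adjusted p = 0.999 in edgeR). That interval gives the differences compatible with these data and is not a limit of detection. The difference between the changes of Spry1 and Spry2 was not tested. Without the outlying pair the log2 fold change of Spry2 was -0.18.

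Spred1 and Spred2 encode proteins that bring the Ras inactivator neurofibromin to the membrane. Spred1 (chromosome 2, 117121071 to 117182279, plus strand, 7 exons) was at 155, 186 and 168 CPM on the high-fat diet and 195, 186 and 144 CPM on chow. The ranges lay nearly on top of each other, with a log2 fold change of -0.04 (SE 0.19, interval -0.46 to 0.37). Spred2 (chromosome 11, 19924442 to 20024026, plus strand, 7 exons) was at 32.3, 46.6 and 56.2 CPM on the high-fat diet and 32.5, 68.3 and 39.9 CPM on chow. It varied more among libraries of the same diet than between diets, with a log2 fold change of -0.06 (SE 0.36, interval -0.84 to 0.72). The adjusted p was 1.00 for both in edgeR. Without the outlying pair the log2 fold changes of Spred1 and Spred2 were -0.09 and 0.04.

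Within libraries the level per kilobase of Fgfr1 was 6.75, 4.86 and 4.64 times that of Fgfr4 on the high-fat diet and 3.07, 3.52 and 3.31 times on chow. The 5 Sprouty and Spred genes summed to 137, 159 and 149.7 CPM per kilobase on the high-fat diet and 185, 199.5 and 169 on chow, without overlap. Most of this difference was that of Spry1 (means of 32.9 on the high-fat diet and 55.6 on chow) and Spry4 (24.2 and 33.1), described above. The means of the others were close, at 53.4 and 56.2 for Spry2, 28.2 and 29.1 for Spred1 and 10.1 and 10.5 for Spred2. Of the summed level Spry1 made up 21.9% ± 3.49 on the high-fat diet and 30.02% ± 2.86 on chow. The sum of the inhibitors was 0.358, 0.490 and 0.499 times that of the receptors on the high-fat diet and 0.516, 0.649 and 0.610 times on chow. These ratios were formed after the values of the genes were known and are given as a description without a test.

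**Figure D2:**
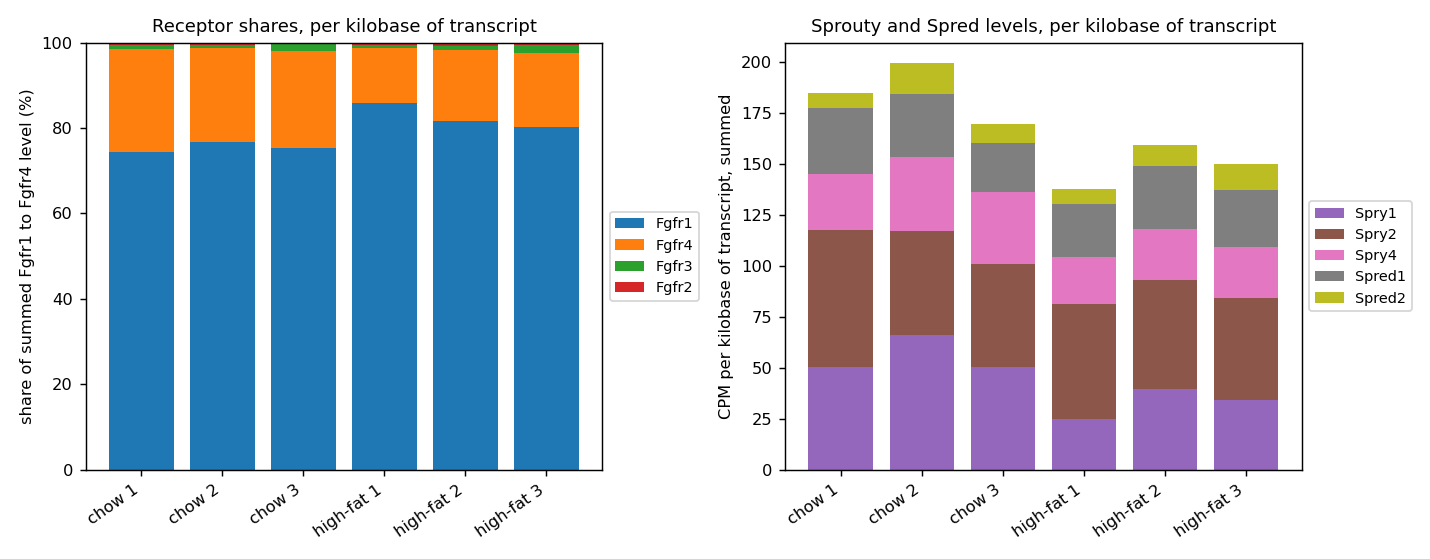
Left, share in percent of Fgfr1, Fgfr4, Fgfr3 and Fgfr2 in their summed level per kilobase of transcript, by library. Right, summed level of the Sprouty and Spred genes in CPM per kilobase, by library. The share of Fgfr4 is 21.8% to 24.2% in the chow libraries and 12.7% to 17.3% in the high-fat diet libraries, and the tallest high-fat diet column on the right (159) is below the shortest chow column (169).

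Precision was lowest for the scarce receptors. Fgfr2 had 53 to 145 counts per library and Fgfrl1 43 to 198, and the biological coefficient of variation that edgeR fitted was 80.6% and 74.3% for them. It was 17.8% for Fgfr1, which had 18326 to 25568 counts, and 19.5% for Fgfr4, 22.8% for Spry1, 21.4% for Spry2, 20.7% for Spry4 and 20.1% for Spred1. The interval of Fgfr2 reached from 0.313-fold to 5.15-fold the chow level and so included severalfold changes in either direction. That of Fgfr1 reached from 0.932-fold to 1.48-fold.

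**Figure D3:**
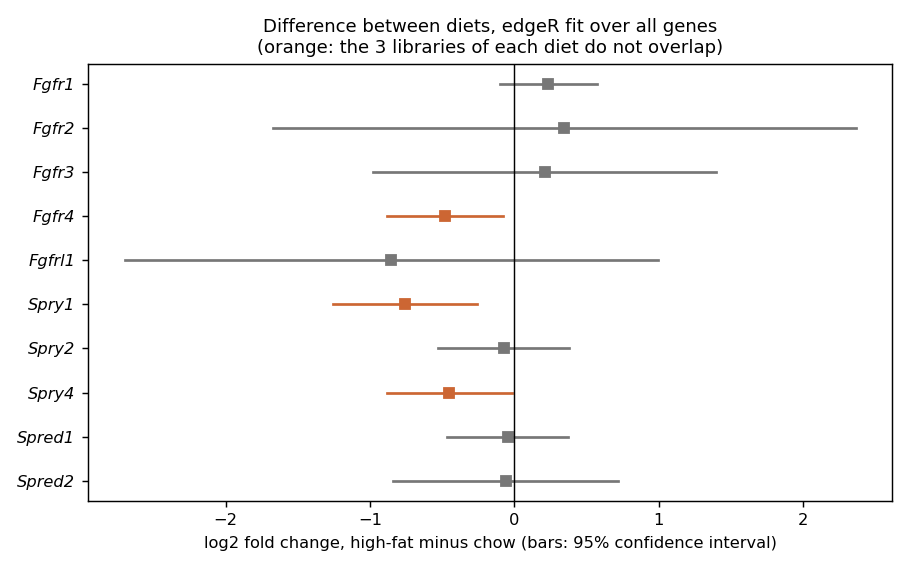
Log2 fold change of each gene, high-fat minus chow (horizontal axis), from the edgeR fit over all genes, with 95% confidence intervals as bars that are not adjusted for the number of genes. The intervals of Fgfr4, Spry1 and Spry4 (orange, diets not overlapping) lie below 0, and those of Fgfr2, Fgfr3 and Fgfrl1 are the widest.

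Sequence just upstream of the start site was taken from RefSeq (GRCm38.p6) for the 8 members with an entry (9 windows, since Fgfr3 has a pair of starts), as the 250 bases before the annotated start. Fgfr1 and Spry4 had no entry. Of 5 motifs of factors that respond to ERK and related signals, only 1 matched any of the 8: the ETS site CCGGAAGT in Fgfrl1, which 2.88% of all 32851 such windows held. The CArG box, the AP-1 site TGANTCA, the cAMP response element TGACGTCA and the Egr site GCGTGGGCG matched none of the 8, against 1.47%, 6.75%, 1.55% and 0.536% of all windows. For context, the GC box GGGCGG, whose letters overlap those of the Egr site, matched 6 of the 8 and 32.7% of all windows, and the E-box CAGCTG matched Fgfr3 and 13.0% of all windows. These last 2 motifs were added after the windows were seen. All motifs were searched on both strands, a match is a description and not a bound site, and the absence of a match says only that these letters are not in this window.

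Shown are the windows of Fgfr4 (chr13:55152568-55152817, plus strand) and Spry1 (chr3:37639697-37639946, plus strand), whose diets did not overlap, of Spry2 (chr14:105896820-105897069, minus strand), whose diets did, and of Fgfrl1 (chr5:108693979-108694228, plus strand), the one with the ETS site. Each is given 5′ to 3′ on the strand of the gene, with motif matches in capitals, and the annotated start follows the last base.
Fgfr4: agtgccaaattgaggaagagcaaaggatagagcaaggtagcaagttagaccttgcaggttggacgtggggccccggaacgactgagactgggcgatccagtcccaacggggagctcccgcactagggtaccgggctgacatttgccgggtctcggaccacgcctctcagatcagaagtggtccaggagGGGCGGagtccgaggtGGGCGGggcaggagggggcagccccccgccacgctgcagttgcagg
Spry1: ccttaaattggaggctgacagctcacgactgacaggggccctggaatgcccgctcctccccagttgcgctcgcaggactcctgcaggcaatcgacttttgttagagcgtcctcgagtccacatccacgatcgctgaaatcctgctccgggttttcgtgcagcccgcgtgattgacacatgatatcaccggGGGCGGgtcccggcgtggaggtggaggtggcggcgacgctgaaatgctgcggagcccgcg
Spry2: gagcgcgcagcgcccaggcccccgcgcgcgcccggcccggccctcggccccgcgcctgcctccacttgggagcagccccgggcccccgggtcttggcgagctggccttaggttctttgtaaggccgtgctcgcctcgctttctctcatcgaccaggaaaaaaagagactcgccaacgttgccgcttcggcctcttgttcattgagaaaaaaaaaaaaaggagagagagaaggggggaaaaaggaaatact
Fgfrl1: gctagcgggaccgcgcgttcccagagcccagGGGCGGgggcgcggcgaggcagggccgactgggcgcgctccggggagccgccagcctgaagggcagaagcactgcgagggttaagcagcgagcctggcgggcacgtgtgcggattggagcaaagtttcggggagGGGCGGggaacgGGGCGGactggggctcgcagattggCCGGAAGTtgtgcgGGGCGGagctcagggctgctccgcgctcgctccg
The windows of Spry1 and Spry2 had the same base composition, 62.4% G and C with 23 CpG pairs each, but Spry1 held a GC box from 60 to 55 bases before the start and Spry2 matched none of the motifs. In Fgfr4 a pair of GC boxes lay from 62 to 57 and from 46 to 41 bases before the start. In Fgfrl1 the ETS site lay from 48 to 41 bases before the start among 4 GC boxes. All 8 members except Fgfr2, whose window was 44.0% G and C, lay above the median of 52.4% over all windows.

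The rest of the pathway was described with 6 gene lists, chosen with earlier results of these data known. Of 112 genes 90 could be tested, of which 3 passed, all lower with the high-fat diet: Ksr2, Egr1 and Fos. Of these, Ksr2 passed the filter on low counts through its chow libraries only. The background for calls lower with the high-fat diet was 0.167%, and for calls in the other direction 0.0909%. At an unadjusted p under 0.05 there were 12, which is to be read against 7.65% of all genes, and 9 of them were lower, against 3.95% of all genes.

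Transcripts of FGF ligands were scarce. Of 24 genes for ligands, related intracellular factors and carriers, 8 had 0 counts in all 6 libraries, 7 could be tested and 0 passed in edgeR, with 0 at an unadjusted p under 0.05. The most abundant was Fgf13, an intracellular factor that is not secreted, at 10.7, 14.8 and 24.1 CPM on the high-fat diet and 13.2, 11.02 and 0.230 CPM on chow. Chow library 3 was far below the other 5. In Fgf12, of the same subfamily, that library was the highest at 23.7 CPM, and the other 5 lay between 0 and 3.39 CPM. Fgf2, a ligand that is much used to stimulate satellite cells in culture, was between 0.325 and 7.98 CPM on the high-fat diet and between 0.6996 and 5.65 CPM on chow.

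Of 16 co-receptors and receptor partners tested, 0 passed the edgeR test, with 1 under an unadjusted p of 0.05. The median log2 fold change was 0.13, with 11 positive and 5 negative. Sdc4, a heparan sulfate proteoglycan of the satellite cell surface, was at 1995.5, 1539 and 1480.5 CPM on the high-fat diet and 2567, 1680.3 and 1740.1 CPM on chow, and the diets overlapped (log2 fold change -0.26, SE 0.18, and -0.48 without the outlying pair). Hspg2, which encodes the basement membrane proteoglycan perlecan, was at 1596, 1479 and 1333 CPM on the high-fat diet and 1164, 1178 and 944 CPM on chow. Every high-fat diet library lay above every chow library in Hspg2 (log2 fold change 0.42, SE 0.14, adjusted p = 0.403 in edgeR, and 0.27 without the outlying pair).

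Among 15 adaptors and proximal enzymes 0 passed in edgeR, with 2 at an unadjusted p under 0.05 and a median log2 fold change of 0.16. The most abundant were Crk, an adaptor of tyrosine kinase signalling, at 272 ± 56.5 CPM on the high-fat diet and 211 ± 15.5 CPM on chow, and Pik3ca, a catalytic subunit of phosphoinositide 3-kinase, at 179 ± 5.56 and 138 ± 26.0 CPM (SD, n = 3 each). Both had all high-fat diet libraries above all chow libraries, with adjusted p = 0.701 and 0.735 in edgeR. Pik3r1, the gene of a regulatory subunit of the same kinase, was at 52.8, 82.2 and 78.3 CPM on the high-fat diet and 178, 170.3 and 123 CPM on chow, with every high-fat diet library below every chow library. Its log2 fold change was -1.14 (SE 0.24) with an adjusted p = 0.0948 in edgeR, which ran from 0.00176 to 0.366 over the alternatives. Pik3r1 passed in 5 of the 18, namely without a filter, in DESeq2, in limma-voom with and without weights and at a threshold of 0.1. It was singled out after its values were seen, as the gene with the smallest p of the adaptors.

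In the list of the Ras-Raf-MEK-ERK core, 1 of 14 genes passed. The list and its median also held Mapk14, the gene of a p38 kinase outside this cascade (log2 fold change 0.72, adjusted p = 0.873 in edgeR). Ksr2, a scaffold of the kinase cascade, had 0 counts in each of the high-fat diet libraries and 420, 95 and 131 counts in chow libraries 1, 2 and 3 (26.4, 5.54 and 7.52 CPM). It passed the filter on low counts through the chow libraries only, so it could be called in no direction other than lower. With 3 counts per library as the floor, its mean was at least 71.9-fold lower with the high-fat diet (adjusted p = 0.0373 in edgeR), and at least 35.7-fold lower when chow library 1, the highest, was left out. Ksr2 did not pass in any of the 6 fits with 1 library left out (adjusted p from 0.0539 to 0.423, the highest without chow library 1), nor in limma-voom (0.141) or with the replicate number as a block (0.0594). The median log2 fold change of the list was 0.09, also with Ksr2 at its bound. Braf, a Raf kinase that activates MEK, was at 138 ± 27.96 CPM on the high-fat diet and 161 ± 54.6 CPM on chow (SD, n = 3 each), and the diets overlapped.

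Of 18 other negative regulators tested 0 passed the edgeR test and 1 was under an unadjusted p of 0.05, and the median log2 fold change was 0.14. Spry3, the remaining Sprouty gene, had 0 counts in every library. It also had no transcript length in the GENCODE annotation used, and whether reads could be assigned to it was not tested. The most abundant were Cav1, which encodes the membrane protein caveolin-1, at 639.96 ± 113 and 525 ± 46.8 CPM on the high-fat diet and chow, and the ubiquitin ligase gene Nedd4 at 596 ± 37.2 and 567 ± 7.32 CPM (SD, n = 3 each). Dusp6, the phosphatase of ERK that FGF signalling induces together with Sprouty genes, was at 19.4, 30.6 and 18.9 CPM on the high-fat diet and 27.9, 37.95 and 40.9 CPM on chow. High-fat diet library 2 of Dusp6 lay above chow library 1, and the log2 fold change was -0.63 (SE 0.40, adjusted p = 0.834 in edgeR, and -0.40 without the outlying pair).

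Among 20 transcripts known to respond to ERK, 2 passed as lower with the high-fat diet and 0 as higher in edgeR. At an unadjusted p under 0.05 there were 7, of which 6 were lower and 1, Ccnd1, was higher. This is to be read against 7.65% of all genes in either direction and 3.95% lower. The median log2 fold change of the list was -0.25, with 8 positive and 12 negative. Egr1, an immediate early transcription factor, was at 2028, 1410.1 and 2225 CPM on the high-fat diet and 4115, 5448 and 4669 CPM on chow (log2 fold change -1.33, SE 0.17, adjusted p = 0.00474 in edgeR). Fos, a subunit of AP-1, was at 922, 506 and 1031 CPM on the high-fat diet and 2348, 2309.96 and 2232 CPM on chow (log2 fold change -1.49, SE 0.21, adjusted p = 0.00947). High-fat diet library 2 was the lowest of all in both, and the diets were far apart. Fos did not pass without chow library 3 (adjusted p = 0.0641), and neither passed without both high-fat diet library 1 and chow library 3 (0.141 and 0.17). The next most abundant transcripts of the list did not pass, Myc, whose diets did not overlap, at 698 ± 63.3 and 870.1 ± 99.1 CPM and Spsb1 at 321 ± 60.5 and 365 ± 40.96 CPM. Etv5, an ETS factor induced by FGF, was at 11.7, 30.1 and 48.7 CPM on the high-fat diet and 44.7, 36.3 and 39.0 CPM on chow, with the lowest and the highest library both on the high-fat diet. Ccnd1 was at 182, 105 and 104 CPM on the high-fat diet and 72.5, 84.2 and 42.3 CPM on chow. Every high-fat diet library lay above every chow library in Ccnd1 (log2 fold change 0.98, SE 0.30, adjusted p = 0.322 in edgeR). Dusp6 and Etv5 were singled out as known FGF targets after the values were seen, and Ccnd1 was also named after they were seen.

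**Figure D4:**
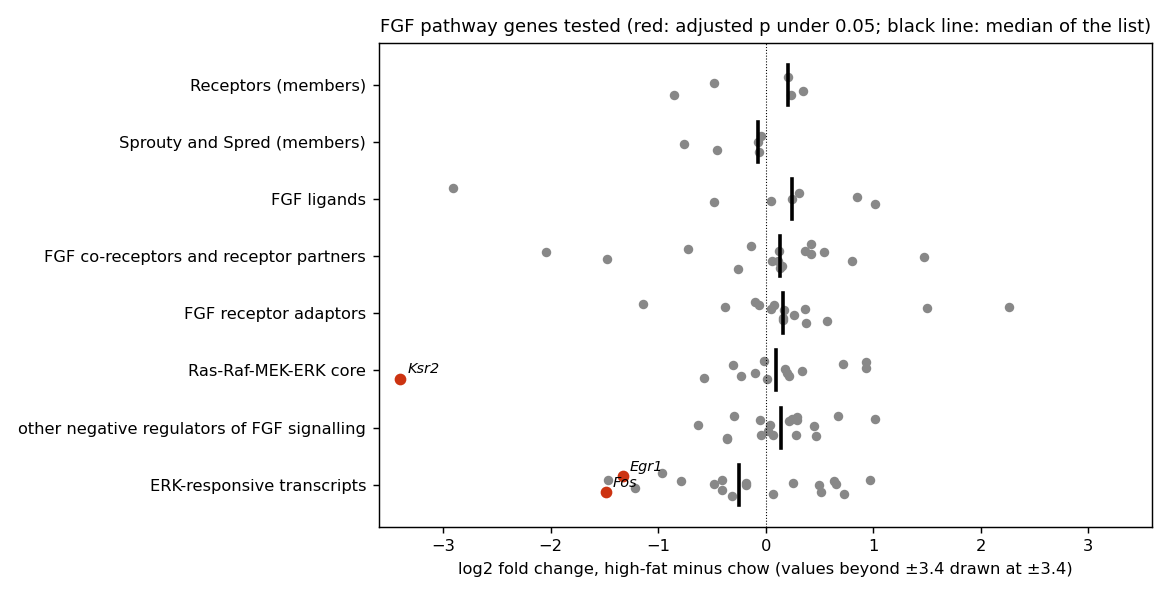
Log2 fold change, high-fat minus chow (horizontal axis), of each tested gene of the receptors, the Sprouty and Spred genes and the 6 lists, with the median of each as a black line and genes past an adjusted p of 0.05 in red. Of the 3 red points Ksr2 is drawn at the edge of the axis, and Egr1 and Fos lie in the list of ERK-responsive transcripts.

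Genes with the pattern most like that of a member were sought among 6982 other genes whose mean reached 10 CPM, by Pearson's r of log2 CPM over the 6 libraries. For Spry1 these were Apobec1 (r = 0.994, Spearman's rho 1), Snord15b (r = 0.980, rho 1) and Fip1l1 (r = 0.979, rho 0.943). For Fgfr4 they were Foxo1 (r = 0.992, rho 1), Snora78 (r = 0.984, rho 1) and Ranbp2 (r = 0.981, rho 0.943). For Fgfr1 they were Kpnb1 (r = 0.989, rho 0.886), Emilin2 (r = 0.979, rho 1) and Evi2a (r = 0.978, rho 0.943). High values were common, and r was over 0.95 for 18 genes with Spry1, 18 with Fgfr4 and 30 with Fgfr1. These are descriptions of 6 points that share library and depth, with no p.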

How the data were processed

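RNA was from at least 50000 sorted cells per replicate with an integrity number of 8.5 to 9.4, libraries were depleted of ribosomal RNA, and reads were 75-bp single reads, per the labels' protocols. The deposited values were raw counts per Entrez gene ID, 1 file per library, without normalization. Alignment with Bowtie2 is named per the file headers, and the submitters' processing notes list it with featureCounts and the builds GRCm38 and mm10. Their versions, the strand setting and how multiply mapped or duplicate reads were handled are not given in the sources used here. Symbols and coordinates are from RefSeq (GRCm38.p6), which gave a symbol to 25275 of 27179 IDs, and transcript lengths from GENCODE M21.

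The diets were compared with edgeR 4.0.16 under R 4.3.3 (filterByExpr with a minimum count of 10, TMM, quasi-likelihood F test, two-sided, diet as the only factor) and limma 3.58.1, with Benjamini-Hochberg adjustment over 13202 genes. Standard errors were the absolute log2 fold change over the square root of F. A count of 3, the floor for a gene at 0, was 0.162 to 0.195 CPM, and floors cover counting error only. No 2 libraries agreed within sampling noise. The fit was tested on simulated data.

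The members and lists were chosen with earlier results of these data known. All members were named, and of each list the genes that passed (up to 6) and up to 4 of the most abundant others, of which the first 2 are described, with Fgf2. Ccnd1 and Mapk14 were named in addition. Some genes of the lists are not reported here. The alternatives were the fit with the replicate number as a block, each library left out in turn, DESeq2 1.42.0 or limma-voom (also with weights per sample) in place of edgeR, robust dispersions, 3 further scaling methods, genes kept without a filter or only from 1 CPM in 3 libraries up, a threshold of 0.1 for the adjusted p, and high-fat diet library 1 and chow library 3 left out as a pair. The union of exons as the length was added after seeing the data.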

Additional observations from a re-analysis of the deposited data

How the results depend on the processing

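The count of the 10 genes past the threshold was 0 in all 18 alternatives. The threshold of 0.1 for the adjusted p uses the main fit, so its fold changes and unadjusted p-values repeat those of the main fit. Over all genes the count was 34, and it was 163 with no filter, 198 with DESeq2, 99 with limma-voom, 112 with sample weights, from 9 to 44 with 1 library left out and 1 without both high-fat diet library 1 and chow library 3. Over the pathway lists the count was 3, and it was 7 with no filter, 5 with DESeq2, 1 to 2 with 1 library left out (1 without chow library 3) and 0 without both libraries. The fits with libraries left out had fewer samples, and for the other settings the cause was not tested. Of 504 log2 fold changes of named genes under an alternative, 475 kept their direction and their side of the threshold, 5 of Pik3r1 passed, 13 of called genes no longer passed, and 11 reversed, all of genes that did not pass. With 1 library left out the log2 fold change ran from -0.0773 to 0.509 for Fgfr3, from -0.146 to 0.0783 for Spry2, from -0.164 to 0.0466 for Spred1, from -0.258 to 0.317 for Spred2, from -7.92 to 0.0295 for Fgf12 and from -0.469 to 0.00768 for Braf. Without both libraries it was 0.0371 for Spred2 and 0.621 for Fgf12, and with sample weights 0.0849 for Fgf12. With the union of exons the share of Fgfr4 in the receptors differed by -10.02 percentage points between diets in place of -7.33. Libraries with the same replicate number did not deviate together (correlations across genes of -0.0261 to 0.0346, where not every library correlated best with its own number), so the numbers were not taken as pairs. With the replicate block 0 of the 10 genes, 2 genes of the lists and 45 genes in all passed. The fitted variation between libraries was highest for Fgfr2, Fgfr3 and Fgfrl1 among the 10 genes, which also had the fewest counts, and which of these limited precision was not tested.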
